A study of Mus musculus with 2031 samples.

Results

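Genes of brain endothelial cells and of the blood-brain barrier were followed across the cell types and both brain areas of a single-cell study of mouse astrocytes. They were chosen by symbol and were the 10 rows Flt1, Cd34, Pecam1, Tie1, Cdh5, Cldn5, Slco1a4, Abcb1a, Mfsd2a and Ly6c1 among the 49671 gene identifiers of the count table, and all 10 were found. The cells came from C57BL/6J mice at postnatal day 56, which carried no transgene and received no treatment. Cells from cortex were prepared as 2 suspensions, each from 1 mouse, and cells from hippocampus as 2 suspensions, each pooled from littermates, so that the area, the litter and how many mice went into a suspension cannot be told apart. Single cells were sorted by FACS as stained for ATP1B2, a subunit of the sodium pump that marks astrocytes, and as unstained for the oligodendrocyte antigen O1. Endothelial cells were therefore not the target of the sort, and those present were the ones that passed this gate. The suspension was taken as the replicate, with 2 suspensions per area, because cells of a suspension share their mice and their preparation.

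Endothelial cells line the blood vessels, and in the brain they form a barrier that limits what passes from blood to tissue. Tight junctions seal the gaps between them, efflux pumps return many lipid-soluble compounds to the blood, carriers bring nutrients across, and transport in vesicles is kept low. Mural cells, which are pericytes and smooth muscle cells, sit on the outer face of the vessel, and the endfeet of astrocytes cover both.

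Cell types and the astrocyte subtypes AST1 to AST5 are the ones assigned by the authors. With counts at hand there were 30 endothelial, 11 microglial, 9 oligodendrocytic and 17 neuronal cells, 27 and 12 mural cells from cortex, 48 and 47 from hippocampus, and 1781 astrocytes. Because the types are clusters of the same counts, a difference between types is described here and not tested. Endothelial cells numbered 9 and 3 by suspension in cortex and 6 and 12 in hippocampus. Reads counted on genes ran from 600758 to 3238215 per cell over all cells, and from 731215 to 2169971 over the endothelial cells, where the median was 1371875. Levels are CPM, the count of each gene after scaling its cell or sum to 1000000 gene counts, taken on the sum of all cells of a type in a suspension and given as mean ± SD over suspensions. The reads carry no molecular tags, so intervals and limits from counts cover counting error only. In these sums, fewer cells with a gene and less RNA per cell cannot be told apart, and shares of cells are therefore given beside the levels.

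The label of the endothelial cells was compared with 14 other endothelial genes and with markers of other cells. All 14 endothelial genes had counts in some of the 30 cells, from 6 cells for Erg to 30 for Eng and Itm2a. Their summed level per cell ran from 10603 to 42126 CPM. In mural cells the same sum had a median of 2694 CPM and a highest cell of 11142 CPM, so the ranges overlapped. Markers of microglia (5 genes), fibroblasts (4 genes) and blood cells (4 genes) were at 0 in all 30 cells. The 6 astrocyte markers summed to a median of 0.632 CPM, with a highest cell of 1382 CPM, and the neuronal and oligodendrocytic markers each had counts in 3 cells or fewer. Mural markers were different: the 9 genes summed to between 1493 and 42892 CPM per cell, with a median of 8377 CPM, and Acta2 and Tagln, genes of contractile smooth muscle, were at 0. Rgs5 had counts in all 30 cells, Vtn in 22, Abcc9 in 15, Pdgfrb and Kcnj8 in 14 each, Cspg4 in 8 and Myh11 in 2. Pdgfrb, the PDGF receptor that defines mural cells, had counts in 3 and 3 of the cortical and in 2 and 6 of the hippocampal endothelial cells, the first suspension of each area being named first throughout. Counts of Pdgfrb were also found in 98.5% of mural cells, at a median of 3599 CPM, and in 26.9% of astrocytes, at a median of 0, so that a count of it is not particular to mural cells. Atp1b2, the gene behind the sort, had counts in 18 of 30 endothelial cells, in 99.3% of mural cells and in 1778 of 1781 astrocytes. Its median level was 92.5 CPM in endothelial cells against 2769 CPM in mural cells and 4581 CPM in astrocytes.

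The stretches upstream of 3 of the genes are shown because they stand for the patterns described below: Flt1 also had counts in mural cells, Cldn5 had the highest level of the list, and Mfsd2a was also at high levels in astrocytes. Each is the 250 bases before the transcription start given by RefSeq on GRCm38.p6, 5′ to 3′ along the strand of the gene, with capitals for AGGAAG, a form of the site bound by ETS factors, on either strand.
Flt1: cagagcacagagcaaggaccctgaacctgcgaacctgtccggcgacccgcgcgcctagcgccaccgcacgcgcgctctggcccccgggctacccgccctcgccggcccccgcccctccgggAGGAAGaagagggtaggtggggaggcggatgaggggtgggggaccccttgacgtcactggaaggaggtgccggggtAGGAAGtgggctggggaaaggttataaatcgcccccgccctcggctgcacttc
Cldn5: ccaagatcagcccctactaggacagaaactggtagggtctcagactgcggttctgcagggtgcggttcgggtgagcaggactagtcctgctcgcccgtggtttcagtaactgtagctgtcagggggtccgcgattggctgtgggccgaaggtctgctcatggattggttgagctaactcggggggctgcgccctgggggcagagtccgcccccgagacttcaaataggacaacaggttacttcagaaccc
Mfsd2a: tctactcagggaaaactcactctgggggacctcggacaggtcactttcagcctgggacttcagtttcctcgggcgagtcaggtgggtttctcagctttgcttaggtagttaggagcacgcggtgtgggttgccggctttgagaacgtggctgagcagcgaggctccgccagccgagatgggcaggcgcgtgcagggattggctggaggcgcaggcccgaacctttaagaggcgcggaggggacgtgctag
The windows lie at chr5:147726012-147726261, strand -, at chr16:18776597-18776846, strand +, and at chr4:122961189-122961438, strand -. AGGAAG was present 2 times upstream of Flt1 and in neither of the other windows. RefSeq windows were matched for 8 of the 10 genes (9 windows, since Ly6c1 has more than 1), and 6 of the 9 held AGGAAG, those of Abcb1a, Cd34, Flt1, Ly6c1, Slco1a4 and Tie1, against 29.5% of all 32851 windows of this length. The letters AACAGGAA, a joint site of FOX and ETS factors that can overlap with AGGAAG, and CTTTGAT and CTTTGTT, forms of the site of TCF and LEF factors, were in none of the 9 windows and in 2.25%, 3.21% and 5.03% of all windows. A match is a description of the letters and does not show binding.

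Every one of the 10 genes was highest in endothelial cells. For all 10, the lowest of the 4 endothelial sums lay above every sum of every other type, over 36 sums of at least 2 cells, and the number stayed at 10 without the endothelial cells with Pdgfrb counts and the mural cells with counts of 3 or more of the genes, a setting chosen after seeing the data. The same was true of 0.598% of the 27409 genes with a count, and of 2.00% of the 7818 genes with at least 10 CPM in endothelial cells. The genes belong to a list chosen for endothelial cells and the types were named from such genes, so this count describes the list and is no independent evidence.

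**Figure D1:**
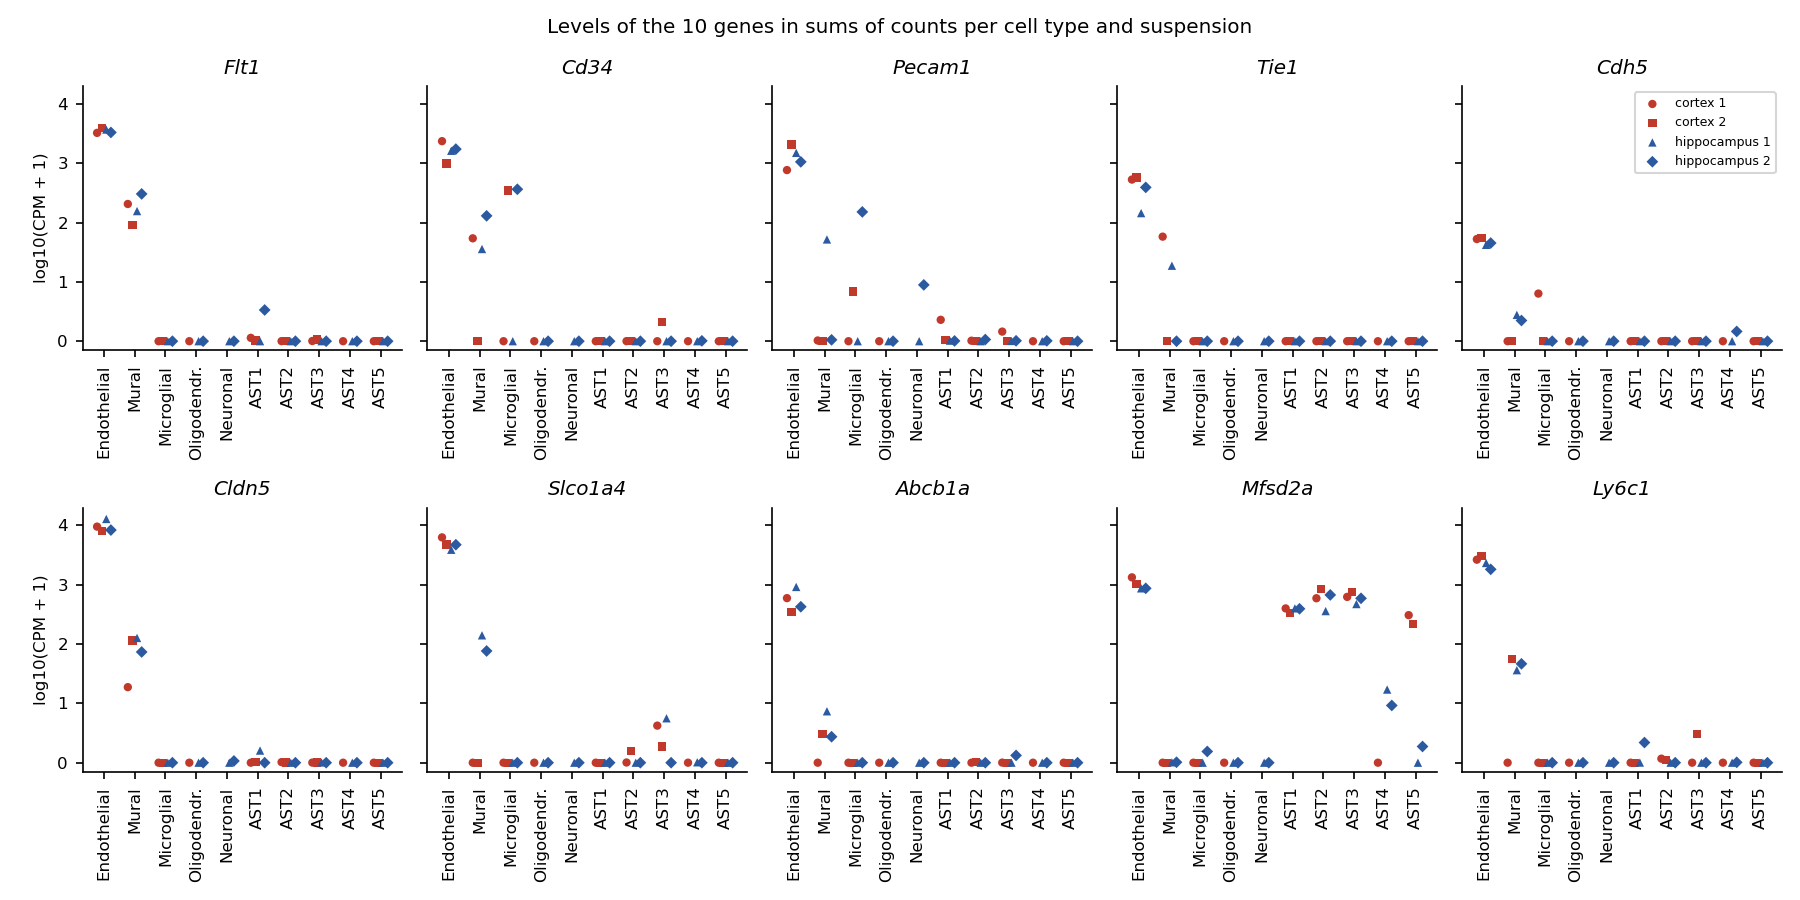
Levels of the 10 genes, as log10(CPM + 1), in each cell type (horizontal axis), with a point for each suspension that holds at least 2 cells of the type; red points are cortex and blue points hippocampus. Endothelial points are the highest in each panel, mural points follow for most genes, and Mfsd2a is also high in AST1, AST2 and AST3.

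Flt1, Tie1 and Cd34 are proteins of the endothelial cell surface, the first a receptor that binds VEGF, the second a partner of the angiopoietin receptor Tek and the third a sialomucin. Flt1 (chr5:147561604-147726011, strand -, on GRCm38) stood at 3235 and 3925 CPM in the cortical and at 3681 and 3291 CPM in the hippocampal endothelial sums. The areas overlapped, and the mean was 3533 ± 328.1 CPM (SD, n = 4 suspensions). Its level in mural cells was 188 ± 89.4 CPM (SD, n = 4 suspensions), 18.8-fold lower. Cd34 (chr1:194938819-194961279, strand +) gave 2346 and 988 CPM in cortex and 1615 and 1725 CPM in hippocampus. Here the cortical suspensions enclosed the hippocampal ones. Cd34 was next highest in microglial cells, at 345.2 CPM in the second cortical and 362.1 CPM in the second hippocampal suspension and 0 in the others, which rests on 3 of 11 cells. Tie1 (chr4:118471191-118490061, strand -) was at 528 and 569 CPM in cortex and at 142.9 and 390 CPM in hippocampus. Both hippocampal values were the lower ones. Tie1 was also the gene of the list with the fewest endothelial cells, 19 of 30 with a count (63.3%, Wilson 95% interval 45.5 to 78.1%), spread as 8 of 9 and 3 of 3 cortical cells and 3 of 6 and 5 of 12 hippocampal cells.

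Pecam1, Cdh5 and Cldn5 join endothelial cells to each other: PECAM-1 and VE-cadherin hold the cell contact, and claudin-5 is the main strand-forming protein of the tight junction of brain vessels. Cldn5 (chr16:18776847-18778262, strand +) was at 9495 and 8020 CPM in cortex and 12780 and 8314 CPM in hippocampus, with the first hippocampal suspension above the other three. It had counts in 30 of 30 cells, from 3228 to 22489 CPM. Its next type was mural cells, at 82.1 ± 48.5 CPM (SD, n = 4 suspensions), 118-fold lower. Pecam1 (chr11:106654217-106750628, strand -) varied more, with 763 and 2058 CPM in cortex and 1489 and 1051 CPM in hippocampus. Again the cortical suspensions enclosed the hippocampal ones, and 28 of 30 cells had a count. Cdh5 (chr8:104101625-104144511, strand +) stood at 51.6 and 53.3 CPM in cortex and 41.02 and 44.1 CPM in hippocampus. This was the lowest level of the list although the gene encodes a defining protein of the cell type, and 23 of 30 cells had a count, 7 of them under 20 CPM.

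Slco1a4, Abcb1a and Mfsd2a act in transport. Slco1a4 encodes a carrier of organic anions, Abcb1a the efflux pump P-glycoprotein, and Mfsd2a a carrier of lysophospholipids with docosahexaenoic acid that is also needed to keep vesicle transport low. Slco1a4 (chr6:141805440-141856199, strand -) was at 6259 and 4740 CPM in cortex and 3871 and 4712 CPM in hippocampus, so that both hippocampal sums lay below both cortical ones, the nearest by a small margin. All 30 cells had a count, from 896 to 10677 CPM. Abcb1a (chr5:8660077-8748575, strand +) was at 592 and 347.6 CPM in cortex and 914 and 423 CPM in hippocampus, and the areas overlapped. It was the gene with the largest ratio to the next type, 225.1-fold over mural cells at 2.53 ± 2.70 CPM (SD, n = 4 suspensions). Mfsd2a (chr4:122946850-122961188, strand -) was at 1326 and 1028 CPM in cortex and at 866 CPM in both hippocampal sums. It had the smallest ratio to the next type, 1.66-fold over AST2 astrocytes at 615 ± 202.1 CPM (SD, n = 4 suspensions), and its lowest endothelial sum, 866 CPM, lay just above the highest AST2 sum, 844 CPM. Ly6c1 (chr15:75044018-75048830, strand -), a surface protein of the Ly6 family found on brain capillaries, was at 2634 and 3028 CPM in cortex and 2318 and 1811 CPM in hippocampus. Both hippocampal sums were lower than both cortical sums, and all 30 cells had a count. Separations of the areas were seen for Tie1, Cdh5, Slco1a4, Mfsd2a and Ly6c1, each lower in hippocampus. They rest on 2 sums per area, of 3 to 12 cells each, and 2 values against 2 often separate by chance alone. The share of all genes that separate in this way was not counted, and none of the 10 genes passed the test between areas given below.

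Near-identical relatives could share reads with some of these genes, although the authors kept reads that mapped to a single place. The relatives of the transporters, Abcb1b, Slco1a1, Slco1a5 and Slco1a6, were between 0.0911 and 0.395 CPM on average in the endothelial sums. Ly6c2, the closest relative of Ly6c1, was at 4.07 CPM on average, with counts in 24 of 30 cells, and Ly6a, another gene of the family, at 1175 CPM. Reads that fit both copies equally well are not in the counts. Of genes that overlap the members on the other strand, Gm16897 at Cd34 was at 3.06 CPM over the endothelial cells. Gm42686 at Abcb1a was at 6.52 CPM and Gm29682 at Cdh5 at 0 CPM. Reads that HTSeq found ambiguous between genes are not in the counts, so these levels do not show how many reads an overlap took away. The part of these overlaps in the levels of Cd34, Abcb1a and Cdh5 was not tested.

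Longer transcripts give more reads in this protocol, so the order of the genes was taken per length, as CPM per kilobase of merged exons in Gencode M21. Cldn5 was first at 6817 ± 1540 CPM per kilobase (SD, n = 4 suspensions), followed by Ly6c1 at 1460 ± 306.6, Slco1a4 at 763 ± 155 and Mfsd2a at 454 ± 96.5 CPM per kilobase. Each of these 4 genes lay above the next one in all suspensions. Flt1 at 261.6 ± 24.3, Cd34 at 228.9 ± 76.3 and Pecam1 at 215.2 ± 90.6 CPM per kilobase came next, and their ranges overlapped, as did those of Pecam1 and Abcb1a (103.9 ± 45.9) and of Abcb1a and Tie1 (82.9 ± 39.1). Cdh5 was last at 11.3 ± 1.41 CPM per kilobase, with no overlap with Tie1.

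**Figure D2:**
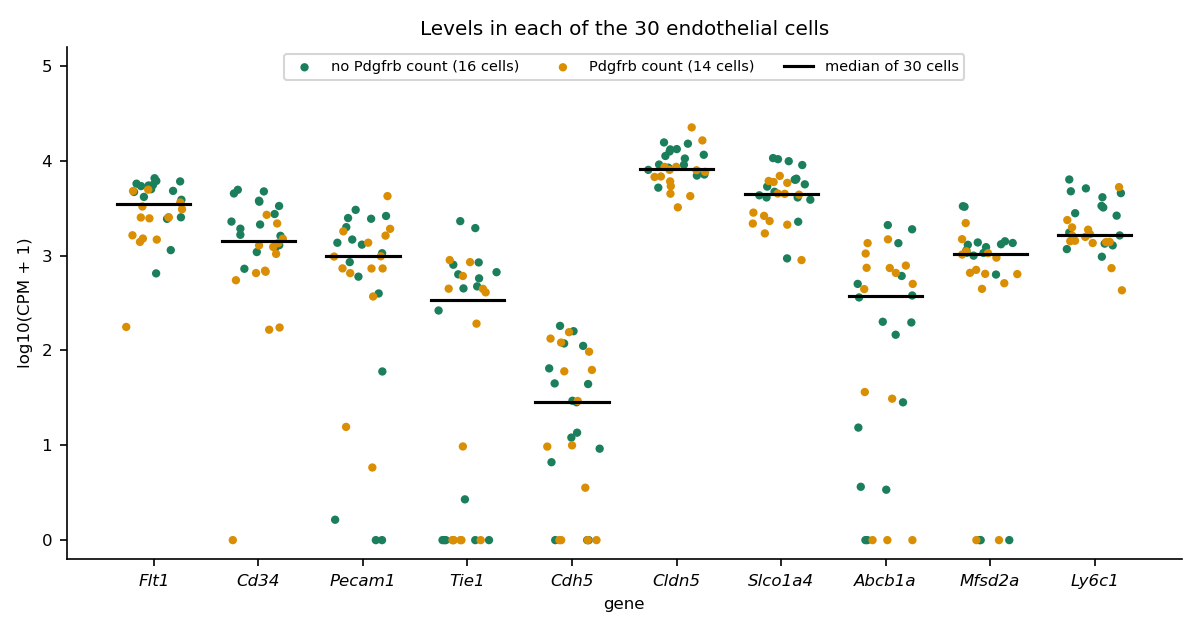
Level of each gene in each of the 30 endothelial cells, as log10(CPM + 1) by gene, with a black line at the median; orange points are the 14 cells with a Pdgfrb count and green points the 16 without. Cldn5, Slco1a4, Flt1 and Ly6c1 have no cell at 0, while Tie1, Cdh5, Abcb1a and Mfsd2a have between 5 and 11 cells at 0.

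Within the 30 cells, 4 genes (Flt1, Cldn5, Slco1a4 and Ly6c1) had counts in every cell, which gives a Wilson 95% interval of 88.6 to 100% for the share. Cd34 had counts in 29 cells, Abcb1a and Mfsd2a in 25 each. Mfsd2a was either at 0, in 5 cells, or at 445 CPM and above, up to 3318 CPM. Abcb1a instead ran from 0 in 5 cells through 3 cells under 20 CPM to 2098 CPM. A cell had counts of 9 of the 10 genes at the median, 6 at least, and 29 of 30 cells had counts of 8 or more. Counting only genes with at least 10 counts, 28 cells had 8 or more, and after thinning each cell to 500000 counts the number was 29.

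The 14 endothelial cells with Pdgfrb counts also had more Vtn, another mural gene, at a median of 12057 CPM against 188.9 CPM in the 16 cells without. Rgs5, a mural gene with counts in all 30 cells, had medians of 8406 and 6839 CPM in these sets, with overlapping ranges. Median levels of 9 of the 10 genes were lower in these cells: Flt1 at 2524 against 4919 CPM, Cd34 at 867 against 2206 CPM, Slco1a4 at 3617 against 5497 CPM, Cldn5 at 7235 against 9845 CPM and Ly6c1 at 1503 against 2719 CPM. Abcb1a was the exception, with a median of 579 CPM in the cells with Pdgfrb counts and a lower one in the others. The single cells overlapped between the sets for every gene, and all 3 endothelial cells of the second cortical suspension were in the set with Pdgfrb counts. The part of the mural RNA in these differences was not tested. Of the 16 cells without Pdgfrb counts, 8 had Vtn counts, up to 5216 CPM, so this set is not free of mural genes. Single cells cannot be told apart from pairs of an endothelial and a mural cell here. That holds for all 30 endothelial cells and for the mural cells with several endothelial genes described next.

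Mural cells had the next highest level for 6 of the 10 genes. Of the mural cells, 85 had no count of any of the 10 genes, 32 had counts of 1, 8 of 2, and 9 of 3 or more. Flt1 was the gene seen most, in 32 cells (23.9%, Wilson 95% interval 17.5 to 31.8%), with 5 of 27 and 3 of 12 cells in cortex and 11 of 48 and 13 of 47 in hippocampus. In 17 of these 32 cells it was the single gene of the list with a count, at a median of 687 CPM and up to 1153 CPM. Its share lay between 18.5% and 27.7% in the 4 suspensions. Cldn5 followed in 13 cells, Cd34 in 11, Slco1a4 in 9, Ly6c1 in 7, Pecam1 and Abcb1a in 6 each, Tie1 in 3, Cdh5 in 2 and Mfsd2a in 2, where it stood under 1 CPM. The mural cell with the most had counts of 8 genes that summed to 11916 CPM, among them Cldn5 at 4433 CPM and Flt1 at 2612 CPM. The 30 endothelial cells summed to between 13307 and 42590 CPM.

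**Figure D3:**
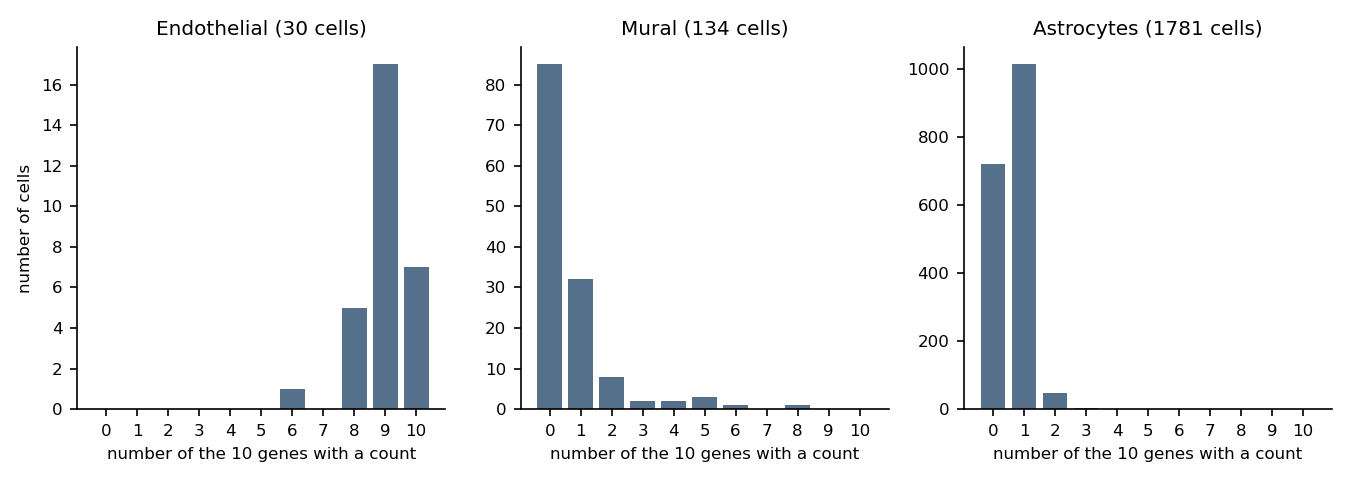
Number of cells (vertical axis) by how many of the 10 genes had a count (horizontal axis), for endothelial cells, mural cells and astrocytes, each with its own vertical scale. Endothelial cells lie between 6 and 10 genes, most mural cells at 0 or 1, and no astrocyte above 3.

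In astrocytes 9 of the 10 genes had hardly any counts, while Mfsd2a had many. Of 1781 astrocytes, 1022 (57.4%) had a Mfsd2a count and 978 had at least 10 counts, while Pecam1 had counts in 48 cells, Slco1a4 in 10, Cldn5 in 9, Flt1 and Ly6c1 in 8 each, Cd34 in 4, Abcb1a in 3, Cdh5 in 2 and Tie1 in none. The median over the astrocytes with a Pecam1 count was 1 count per cell, and 2 of them had at least 10. Tie1 at 0 of 1781 cells allows a share of up to 0.168%. Mfsd2a was at 0 in the oligodendrocytic and neuronal cells and had counts in 1 of 11 microglial cells. In the astrocytes with a count, the median level of Mfsd2a was 789 CPM, with quartiles at 462 and 1217 CPM, against 1071 CPM in the 25 endothelial cells with a count.

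Mfsd2a differed between the subtypes of astrocytes. AST2 and AST3 had the highest mean levels, at 589 and 844 CPM in cortex and 357.5 and 670 CPM in hippocampus for AST2, and at 621 and 743 CPM in cortex and 470 and 588 CPM in hippocampus for AST3. AST1 was at 397 and 335.05 CPM in cortex and 397 and 391 CPM in hippocampus, below AST3 in every suspension and below AST2 in all but the first hippocampal one. AST4, which came almost wholly from hippocampus, was at 16.1 and 8.22 CPM there, with counts in 4 of 91 cells, the 2 cells from cortex being at 0. AST5 stood at 305.4 and 216.96 CPM in cortex and at 0 and 0.876 CPM in hippocampus, over 8 and 10 cortical and 6 and 2 hippocampal cells. The 26 AST5 cells also stood apart in a median of 1.59% of reads assigned to no gene by HTSeq, against 10.66 to 13.96% in the other subtypes, and in 1674.5 genes detected, against 1992 to 2562, and the part of this in the level was not tested. The subtypes were found on these counts, and no test was made of them.

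**Figure D4:**
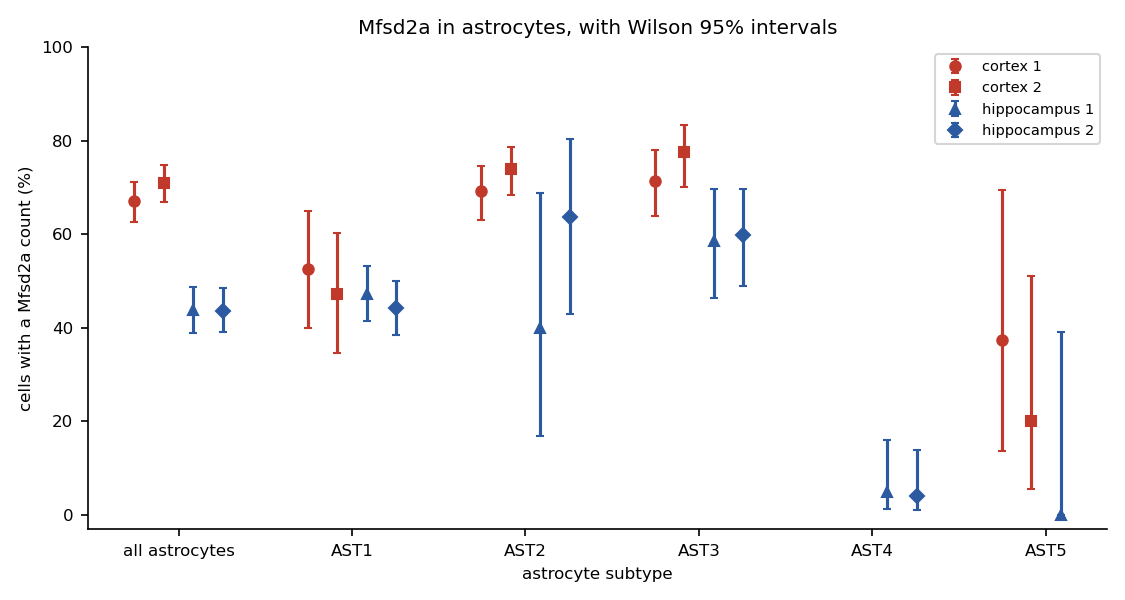
Share of cells with a Mfsd2a count in percent, for all astrocytes and each subtype with at least 5 cells in a suspension; red points are cortex, blue points hippocampus, and bars are Wilson 95% intervals, which cover counting error only. Over all astrocytes both hippocampal shares, 43.8% and 43.7%, lie below both cortical shares, 67.03% and 70.9%, while in AST1 the 4 shares lie between 44.2% and 52.6%.

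The rule that picks the genes by symbol does not use the brain area, though the list was chosen with earlier results of these data known, and the area was tested within each cell type on the summed counts. In astrocytes Mfsd2a was at 570 and 750 CPM in cortex and 365.2 and 399 CPM in hippocampus, and the areas did not overlap. The fitted log2 fold change, hippocampus over cortex, was -0.77 ± 0.17 (SE, n = 2 against 2 suspensions), with an adjusted p of 0.232 in edgeR (quasi-likelihood fit, Benjamini-Hochberg over 19160 genes), so it did not pass (unadjusted p = 0.0119 in the edgeR fit). edgeR called 0% of these genes, with an unadjusted p under 0.05 for 2609 of them. By DESeq2, 1858 genes were called. Of the 10 genes, 6 passed the low-count filter in astrocytes and 0 were called by edgeR. The log2 fold changes of the other 5 were 4.94 for Flt1 (SE 3.60), 1.84 for Abcb1a (SE 2.57), -0.17 for Ly6c1 (SE 2.60), -1.12 for Slco1a4 (SE 2.92) and -3.45 for Pecam1 (SE 1.76), from levels of at most 1.51 CPM as scaled by edgeR. DESeq2 gave Mfsd2a an adjusted p of 5.922e-06 for a log2 fold change of -0.76, and over all alternatives the adjusted p ran from this value to 0.9997. Counts of Mfsd2a were found in 67.03% and 70.9% of cortical astrocytes by suspension, and in 43.8% and 43.7% of those from hippocampus, a difference of -25.3 percentage points (exact permutation test, two-sided, p = 0.333, the smallest that 2 against 2 suspensions allow).

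The makeup of the astrocytes also differed between the areas. AST2 made up 52.1% and 56.7% of astrocytes in cortex and 2.54% and 5.14% in hippocampus, and AST1 made up 12.4% and 11.02% in cortex and 68.96% and 64.02% in hippocampus. Within AST1 the mean level was 365.8 ± 43.5 CPM in cortex and 394 ± 4.48 CPM in hippocampus (SD, n = 2 suspensions each), and the levels overlapped. Counts were found in 52.6% and 47.27% of the AST1 cells from cortex and in 47.23% and 44.2% of those from hippocampus, which did not overlap, by a narrow margin, while the shares with at least 10 counts and after thinning overlapped. Within AST3, with shares of 71.4% and 77.5% in cortex and 58.5% and 59.8% in hippocampus, the areas did not overlap, with 682 ± 86.2 CPM in cortex and 529 ± 83.1 CPM in hippocampus (SD, n = 2 suspensions each). For the share and for the level alike, the exact permutation test, two-sided, gave p = 0.333, the smallest that 2 against 2 suspensions allow. The share of all genes that separate within AST3 was not counted. Within AST2 the levels overlapped but the shares did not, with counts in 69.2% and 73.9% of cortical cells and in 4 of 10 and 14 of 22 hippocampal cells. With a term for the subtype in the edgeR fit, the log2 fold change of Mfsd2a was -0.72 ± 0.87 (SE, 17 sums of at least 5 cells), beside -0.77 without it, with an adjusted p of 0.9997. These 17 sums come from 4 suspensions and are not independent of each other, so the SE and p do not stand for 17 replicates. Among them AST4 came from hippocampus alone, and the hippocampal sum of AST5 held 6 cells at 0 CPM. How much each subtype weighs in the fitted value was not tested, so it does not show a change of this size within the subtypes. The part of the makeup in the difference was not tested further. Reverse transcription was run in 11 batches, and 10 of them held both areas. In all 10 the share of astrocytes with a Mfsd2a count was higher in cortex, between 56.8% and 81.4%, than in hippocampus, between 31.1% and 56.6%. These batches hold cells of the same 4 suspensions, with the same makeup of subtypes by area, so they are not further replicates. None of the 32 plates held both areas.

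In endothelial cells no gene of the list passed the test between areas. Of the 10 genes, all tested, 0 were called, beside 0% of 7472 genes. Unadjusted p was under 0.05 for 2.53% of the 7472 genes and for 0 of the 10, and DESeq2 called 531 genes, none of the 10. Fitted log2 fold changes, hippocampus over cortex, ran from -0.82 for Tie1 (SE 0.76) to 0.59 for Abcb1a (SE 0.63), and leaving out 1 suspension moved Tie1 between -1.89 (without the second hippocampal) and -0.22 (without the first) and Abcb1a between 0.063 (without the first hippocampal) and 1.25 (without the first cortical). In the fit of all suspensions edgeR's adjusted p was 0.9999 for each. Cldn5 was at 0.39 (SE 0.27), with 0.12 without the second and 0.72 without the first cortical suspension, Ly6c1 at -0.29 (SE 0.23), Mfsd2a at -0.30 (SE 0.39) and Flt1 at 0.14 (SE 0.19). The median over the 10 was -0.03, against 0.22 over all genes tested. The endothelial sums hold 3 to 12 cells. In simulated counts of this design 2 of 200 genes changed by 2 on the log2 scale were found, beside 2 false calls. The 200 were drawn at random from all genes above the median level, and for such genes changes of this size would mostly have been missed. How far this holds for the 10 genes was not tested.

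**Figure D5:**
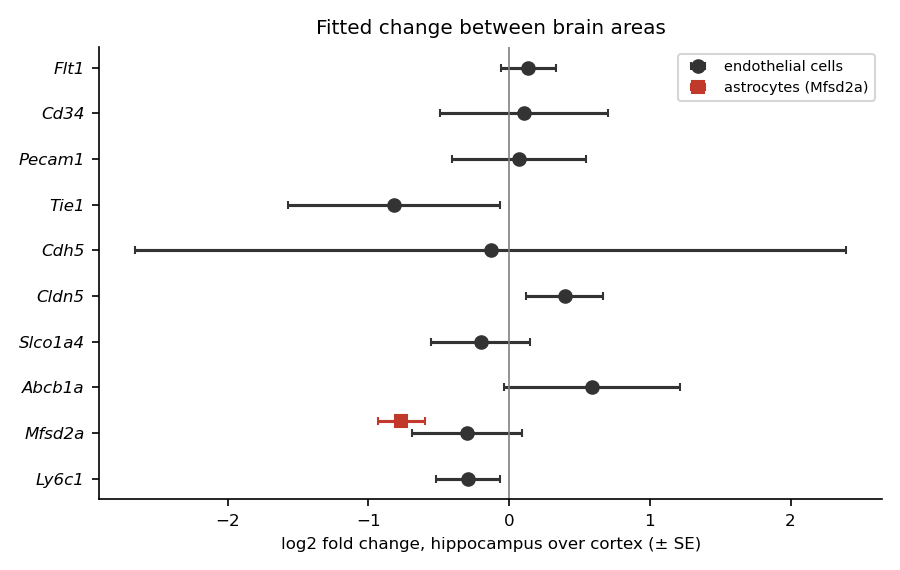
Fitted log2 fold change of hippocampus over cortex (horizontal axis) for each of the 10 genes in endothelial cells (black points) and for Mfsd2a in astrocytes (red square), with bars of 1 SE. Of the black bars, those of Tie1, Cldn5 and Ly6c1 do not reach 0, and that of Cdh5 is the widest. The SE comes from the edgeR fit, which borrows dispersion from other genes, and is not the spread of a gene's own sums. The Cdh5 sums lay between 41.02 and 53.3 CPM.

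In mural cells 8 of the 10 genes passed the low-count filter and 0 were called by edgeR, beside 0% of 10614 genes. Of these genes, 961 were under 0.05 by unadjusted p. DESeq2 made 1373 calls. Slco1a4 was at 0 in both cortical sums and at 138.98 and 75.3 CPM in hippocampus, which rests on 0 of 39 cortical and 9 of 95 hippocampal cells. Of these 9 cells, 6 were among the mural cells with counts of 3 or more of the genes, and without such cells, a setting chosen after seeing the data, the hippocampal sums were at 116.1 and 0 CPM, and neither Slco1a4 nor Cdh5 passed the low-count filter. A count of 0 in 39 cells allows a share of up to 7.69% by counting error alone. edgeR gave Slco1a4 an adjusted p of 0.535 and DESeq2 one of 1.62e-11. Cdh5, with counts in 2 hippocampal cells and no cortical cell, had an adjusted p of 0.535 in edgeR and 0.0002021 in DESeq2. Both calls of DESeq2 rest on a group in which every library is at 0. Flt1 was at 204.25 and 89.97 CPM in cortex and 154.7 and 302.1 CPM in hippocampus, and the areas overlapped. Its log2 fold change was 0.74 ± 0.67 (SE, n = 2 against 2 suspensions), with an adjusted p of 0.9999 in edgeR, and it ran from 0.19 without the second hippocampal to 1.53 without the first cortical suspension.

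Other genes of the endothelial cell and of the barrier were described from lists, none of whose genes was called between areas in endothelial cells, mural cells or astrocytes by edgeR. Of 14 other endothelial genes, 12 had every endothelial sum above every other sum. Itm2a, a membrane protein, was at 9610 ± 484 CPM, Eng, a coreceptor for TGF-beta family ligands, at 2963 ± 426 CPM, Esam, an adhesion molecule, at 2228 ± 435 CPM and Ptprb, the phosphatase VE-PTP, at 1423 ± 142.8 CPM (SD, n = 4 suspensions each). Eng and Esam were shared with mural cells, at 929 and 1349 CPM there. The median over the 14 genes was 1016 CPM, against 1505 CPM over the 10 and 0 over all genes with a count.

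Of 18 genes of tight and adherens junctions, 4 (Tjp1, Ocln, Lsr and Cgnl1) had every endothelial sum above every other, and 13 had any count in endothelial cells. Jam2, a junctional adhesion molecule, was at 645 ± 297.9 CPM, Tjp1, the scaffold ZO-1, at 619 ± 403 CPM, Ocln, occludin, at 566 ± 294.6 CPM and Cgnl1, paracingulin, at 503 ± 175 CPM (SD, n = 4 suspensions each). The claudins Cldn1, Cldn3 and Cldn12 had no count in the 30 endothelial cells, which allows a share of up to 10%. These claudins were picked out after their values were seen.

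Of 18 barrier transporters, all had counts in endothelial cells and 9 had every endothelial sum above every other. Slc2a1, the glucose carrier GLUT1, was at 3457 ± 457 CPM with counts in 30 of 30 cells, Slc6a6, the taurine carrier, at 2178 ± 491 CPM, Slc3a2, the heavy chain of amino acid carriers, at 2103 ± 641 CPM and Slc22a8, an organic anion carrier, at 1801 ± 627 CPM (SD, n = 4 suspensions each). Slc22a8 was at 1837 CPM in mural cells. Mfsd2a was not the only barrier transporter at high levels in astrocytes: Slco1c1, a carrier of thyroid hormone chosen here after its values were seen, was at 1717 ± 594 CPM in endothelial cells (SD, n = 4 suspensions) and 2107 CPM in AST2. Slc3a2 and Slc2a1 were at 1505 and 733 CPM in AST2, while Slc6a6 and Slc22a8 were at 0.229 and 0.00597 CPM there. Slc38a3, also chosen after its values were seen, was at 1115 CPM in AST2, above its mean of 495 CPM in endothelial cells.

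Of 7 genes of caveolae, fenestrae and transcytosis, 1 (Cavin2, 371.2 ± 179.7 CPM) had every endothelial sum above every other. Cavin1 was at 1223 ± 440 CPM, Cav1, the coat protein of caveolae, at 496 ± 230 CPM and Cav2 at 461 ± 238.1 CPM (SD, n = 4 suspensions each). Plvap, the diaphragm protein of fenestrae that is low in barrier vessels, had counts in 1 of 30 cells; it was singled out after its values were seen. Of 13 genes of VEGF, angiopoietin and TGF-beta signalling, 2 stood above in every sum, the receptors Acvrl1 at 778 ± 115 CPM and Nrp1 at 428 ± 65.9 CPM (SD, n = 4 suspensions each). Pdgfb, the ligand of the mural PDGF receptor, was at 253.1 ± 268.98 CPM, and Flt4, a VEGF receptor, at 102.7 ± 73.8 CPM. The ligand Vegfa, named after its values were seen, had no count in endothelial cells and was highest in AST2, at 31.01 CPM.

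No gene of the 16 in Wnt and Norrin signalling had every endothelial sum above every other, though 13 had counts. Tspan12, a coreceptor for Norrin, was at 476 ± 335.99 CPM, below AST5 at 934 CPM. Nkd1, a target and inhibitor of the pathway, was at 308.4 ± 196.3 CPM, Lef1, its transcription factor, at 219.5 ± 116.7 CPM and Fzd6, a receptor, at 203.2 ± 204.9 CPM (SD, n = 4 suspensions each). Of 21 transcription factors, 5 stood above in every sum: Sox7, Sox17, Sox18, Foxq1 and Gata2. Epas1 was highest, at 2195 ± 469 CPM, but mural cells had 1533 CPM. Sox18, at 1020 ± 120.5 CPM, had 0.0129 CPM in its highest other sum. Ets1 was at 987 ± 330 CPM and Klf2, a factor of flow sensing, at 541 ± 190 CPM (SD, n = 4 suspensions each).

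Genes that mark arteries, veins and capillaries were at unequal levels in the 30 cells. Of 7 capillary genes all had counts in more than 15 cells: Car4, a carbonic anhydrase, in 28 cells at a median of 1616 CPM, Cxcl12 in 26 at 1845 CPM, Tfrc, the transferrin receptor, in 23 at 941 CPM and Slc16a1, a lactate carrier, in 20 at 715 CPM. Car4 and Cxcl12 were also at 2100.1 and 697.9 CPM in the mural sums, where the highest sum of Car4, 3068 CPM, lay above its endothelial mean of 2694 CPM. Of 10 arterial genes, Mgp had counts in 16 cells, Gja4 in 9, and Dll4 and Hey1 in 5 each, and Mgp and Gja4 were higher in mural cells, at 708 and 1003 CPM on the sums. Of 10 venous genes, Slc38a5 had counts in 17 cells, Nr2f2 in 12, Ephb4 in 8 and Vwf in 5. The median endothelial level was 963 CPM over the capillary genes, 25.1 CPM over the arterial and 4.15 CPM over the venous genes.

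Among the 10 other genes whose level followed the mean profile of the list most closely were Lsr, Ptprb, Icam2, Cd93, Clic5, Gata2, Srarp, Robo4 and Sox17. Likeness was Pearson's r of log2(CPM + 1) with the mean over the 10 genes, over 36 sums that share suspensions and depth, among genes of at least 10 CPM in endothelial cells, and ran from 0.980 for Lsr to 0.955 for Sox17. The filter uses the type in which the list is highest, so a high r of endothelial genes is in part set by it. Members themselves ranged from 0.980 for Abcb1a down to 0.860 for Cd34 and 0.396 for Mfsd2a, whose level in astrocytes was described above. Each member is part of the mean it was compared with, which raises its r. Lsr, the receptor of tricellular junctions, was at 340 ± 26.8 CPM with counts in 23 of 30 cells (SD, n = 4 suspensions). Ranked by Spearman's rho, 0 of these 10 genes remained among the 10 most alike.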

How the data were processed

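Single cells of mouse cortex and hippocampus were sorted and sequenced with a modified Smart-seq2 protocol. Per the labels and the study's methods, the authors aligned reads to GRCm38.p5, Gencode and ERCC with STAR 2.5.2b, retained unique alignments and used HTSeq for counting. Deposited were raw counts by gene for each cell, without normalization or pooling. Counts of 2030 of 2031 cells were used, and 1 mural cell was not analysed here. Of the series-wide table, 8 columns were compared with the per-cell counts for the 10 genes (80 of 80 values equal), and 2023 columns were not used. Cell types are the authors' assignment; 33 cells were not in the copy of that list and 15 carried no type. ERCC counts and the summary rows of HTSeq were left out of totals.

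Counts were summed per type and suspension. Areas were compared, 2 suspensions against 2, with edgeR 4.0.16 in R 4.3.3 (TMM, low-count filter, robust quasi-likelihood fit, Benjamini-Hochberg, threshold 0.05); alternatives used DESeq2 1.42.0 and limma 3.58.1. Suspensions come from separate mice or pools. The p-values rest on the spread between suspensions as edgeR models it, with dispersion borrowed from other genes. Sampling of few cells in small sums is part of that spread. An SE from edgeR is the size of the log2 fold change divided by the square root of F. It therefore also borrows from other genes. On simulated counts 200 genes, drawn at random from those above the median level, were changed by 2 on the log2 scale. Of these, 157 (astrocytes), 1 (mural cells) and 2 (endothelial cells) were found, with 11, 0 and 2 false calls. Shares carry Wilson 95% intervals, and a share at 0 a limit of 3 cells. Likeness used a pseudocount of 1. Exon lengths and positions are from Gencode M21 on GRCm38, promoters from RefSeq on GRCm38.p6. Doublets were not called. The members and lists were chosen with earlier results of these data known. Named besides the members were the 10 genes most alike (1 of them is not reported here), the 4 with the highest endothelial level in each list, and relatives that can share reads. Further genes (small counts spelled out, and genes singled out in the text) were chosen after their values were seen.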

Additional observations from a re-analysis of the deposited data

Results flagged for a closer look

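Among 18 sets of 4 suspension levels tried, 1 held a suspension far from the other three, about what chance gives, since it flags 1 in 20: Mfsd2a in AST1 was at 335.05 CPM in the second cortical suspension, against 391 to 397 CPM in the others. Cells outside the copy of the authors' list were in no comparison. The 33 of them, all from the first cortical suspension, had Mfsd2a at 895 CPM, with counts in 23 cells (69.7%), and none of the other 9 genes had a count.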

How the results depend on the processing

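Every endothelial sum lay above every other sum for 10 of the 10 genes in each of the 7 alternatives tried, and 67 of 70 endothelial levels moved by less than 1 SD. The 3 that moved were Flt1, Cd34 and Slco1a4 without the endothelial cells with Pdgfrb counts. With at least 10 counts or thinned cells, 28 and 29 endothelial cells had 8 or more genes (29 as reported), 7 and 8 mural cells had 3 or more (9 as reported), and the difference in the share of astrocytes with Mfsd2a was -25.6 and -25.4 points (-25.3 as reported). Of the 10 genes most alike, 7 remained with sums of at least 5 cells and 0 by Spearman's rho. Genes called between areas, 0 in each cell type, became 1858 in astrocytes, 1373 in mural cells and 531 in endothelial cells by DESeq2, 3 in astrocytes with a subtype term and 7 in endothelial cells without the low-count filter, and 0 in all other alternatives. With the replicate number as a block (a replicate block), 0 genes were called in each cell type. Deviations of suspensions with the same number correlated at -0.015, 0.005 and -0.031 in astrocytes, mural and endothelial cells, so the numbers were not taken as pairs. DESeq2 alone passed Mfsd2a in astrocytes and Slco1a4 and Cdh5 in mural cells. Scaling by library totals moved the 10 endothelial log2 fold changes by -0.15 at the median. Directions that turned, none past the threshold, were on the log2 scale: in astrocytes Ly6c1 at 0.0645 (limma) and 0.58 (thinned); in mural cells Flt1 at -0.022 without the cells with counts of 3 or more genes; in endothelial cells Pecam1 at -0.011 (RLE and DESeq2) and -0.14 (library totals), Flt1 at -0.026 (library totals) and -0.073 (limma), and, without cells with Pdgfrb counts, Cd34 at -0.29, Cdh5 at 0.74 and Cldn5 at -0.045. That exclusion left 0 endothelial cells in the second cortical suspension, so these 3 values also lack that suspension. Both exclusions of cells were chosen after seeing the data. The cause of none of these changes was tested. Leaving out 1 suspension, which assumes that the lone one left in its area varies like the others, gave wide ranges in astrocytes for genes with counts in few cells. They were -7.12 to 5.94 for Flt1, -6.96 to 2.21 for Ly6c1, -12.29 to -0.12 for Slco1a4 and -4.36 to -0.31 for Pecam1. For Abcb1a they were 0.96 to 4.41 in the fits where it passed the low-count filter. In mural cells they were -12.95 to 11.66 for Tie1, -0.011 to 2.56 for Cldn5 and -0.28 to 14.06 for Ly6c1. In endothelial cells they were -0.50 to 1.12 for Cd34, -0.37 to 0.70 for Pecam1, -0.63 to 0.11 for Mfsd2a, -0.55 to 0.22 for Slco1a4 and -0.31 to 0.034 for Cdh5. The smallest endothelial sum held 3 cells, with 2 suspensions per area. For genes drawn at random above the median level, even changes of 2 on the log2 scale between areas in endothelial cells were mostly not detectable, with 2 of 200 found in simulated counts. The 10 genes were not simulated apart.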

Other observations

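The 15 cells that carry no type had a Mfsd2a count in 1 cell and a Flt1 count in 1 cell, and none of the other 8 genes had a count. Endothelial cells were found on 19 of the 32 plates, and had counts on 2338 genes at the median, against 1627 in mural cells. Gene counts stood 4.28 above ERCC counts on the log2 scale at the median in endothelial cells and 3.74 in mural cells.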
